A study of Mus musculus with 11 samples.

Results

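The genes described here are 39 genes that mark the tissue around lymphoma cells: 18 of fibroblasts and the extracellular matrix, 6 of lymph node stroma, 12 of blood vessels and 3 of lymph vessels. They were followed in 11 mouse lymphomas taken from lymph nodes, measured on one-colour arrays. The labels call 4 of them plasma cell (PCL), 3 mantle cell (MCL) and 4 Burkitt (BL) lymphomas. All came from mice of the Black 6 strain of genotype c-myc-3'RR/p53+/-, so the mice of every group were heterozygous for p53 and carried a c-myc transgene under the heavy chain locus's 3' enhancers, which act in B cells. Members were found by the gene name printed on the array, and 38 of the 39 had a probe, 46 probes in all. Ccl21a had none under that name. Of the 38, 24 were measured, which here means well above background on at least 3 arrays: 13 matrix, 4 lymph node stroma, 7 blood vessel and 0 lymph vessel genes. These 24 stand among 20181 genes that passed the same filter.

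Lymph node stroma is a scaffold on which B and T cells move. Fibroblastic reticular cells wrap collagen fibres and secrete Ccl19 and Ccl21, which draw cells bearing Ccr7, while follicular dendritic cells and related stroma secrete Cxcl13, which draws B cells bearing Cxcr5. High endothelial venules let lymphocytes enter from blood, and lymph vessels, marked by Prox1, Flt4 and Lyve1, carry them in and out. Interstitial fibrils are built of collagens I, III and V, vessel basement membranes of collagen IV, and Fn1 (fibronectin) and the small proteoglycans Dcn, Lum and Bgn bind to them.

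Levels below are log2 signals relative to the 75th percentile of the same array, so that 0 is the 75th percentile and each step is a doubling. Arrays had 55.5% to 62.8% of spots well above background, RNA integrity numbers were 8 to 10, and 8 of 8 B cell markers were well above background on every array. RNA came from whole tumours, so fewer cells of a kind and less RNA per cell cannot be told apart. Slides held 1 lymphoma type each, so type and slide cannot be told apart. A gene was called changed at an adjusted p under 0.05 over all 20181 genes (limma, Benjamini-Hochberg).

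Several genes had more than 1 probe, and the probes of a gene did not always give the same picture. Those of 3 such genes, Kdr, Ccl19 and Madcam1, are shown before the values. Of each 60-base probe, the 30 bases around its longest run of G and C are printed, with that run in capitals, and positions count from 1 at the probe's 5' end. Positions in the genome refer to build mm9 of the mouse, as the file headers give them. Kdr, the main VEGF receptor of endothelium, had a bright and a dim probe on the minus strand, at chr5:76330395-76330454 and chr5:76329309-76329368, 1086 bases apart in the transcript and in the genome. Ccl19 had 3 probes on the plus strand, at chr4:42248526-42248585, chr4:42248630-42248689 and chr4:42250105-42250164. The first and the third start 393 bases apart in the transcript and 1579 bases apart in the genome. Madcam1 had 2 on the plus strand, at chr10:79131212-79131271 (bright) and chr10:79129132-79129191.
Kdr, bright probe, bases 20 to 49: ctgtcccggctCCGCCCCCaactcctggaa
Kdr, dim probe, bases 31 to 60: aaactatgtctactggtttctGCCtgtgtg
Ccl19, the first probe, bases 14 to 43: cttggctcctgaaCCCCttcacgccacagg
Ccl19, the second probe, bases 1 to 30: ttcttGCGCacacagtctctcaggctcact
Ccl19, the third probe, bases 4 to 33: tccagaccagctctGGGtggatcgcatcat
Madcam1, bright probe, bases 28 to 57: ttttctgcctgctGGCCCagagctaaataa
Madcam1, the other probe, bases 1 to 30: aGCCCtacatcctgacctcatcaagtactg
Over their full length the bright Kdr probe held 55.0% G and C and the dim one 35.0%. The 3 Ccl19 probes held 55.0%, 53.3% and 55.0%.

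**Figure D1:**
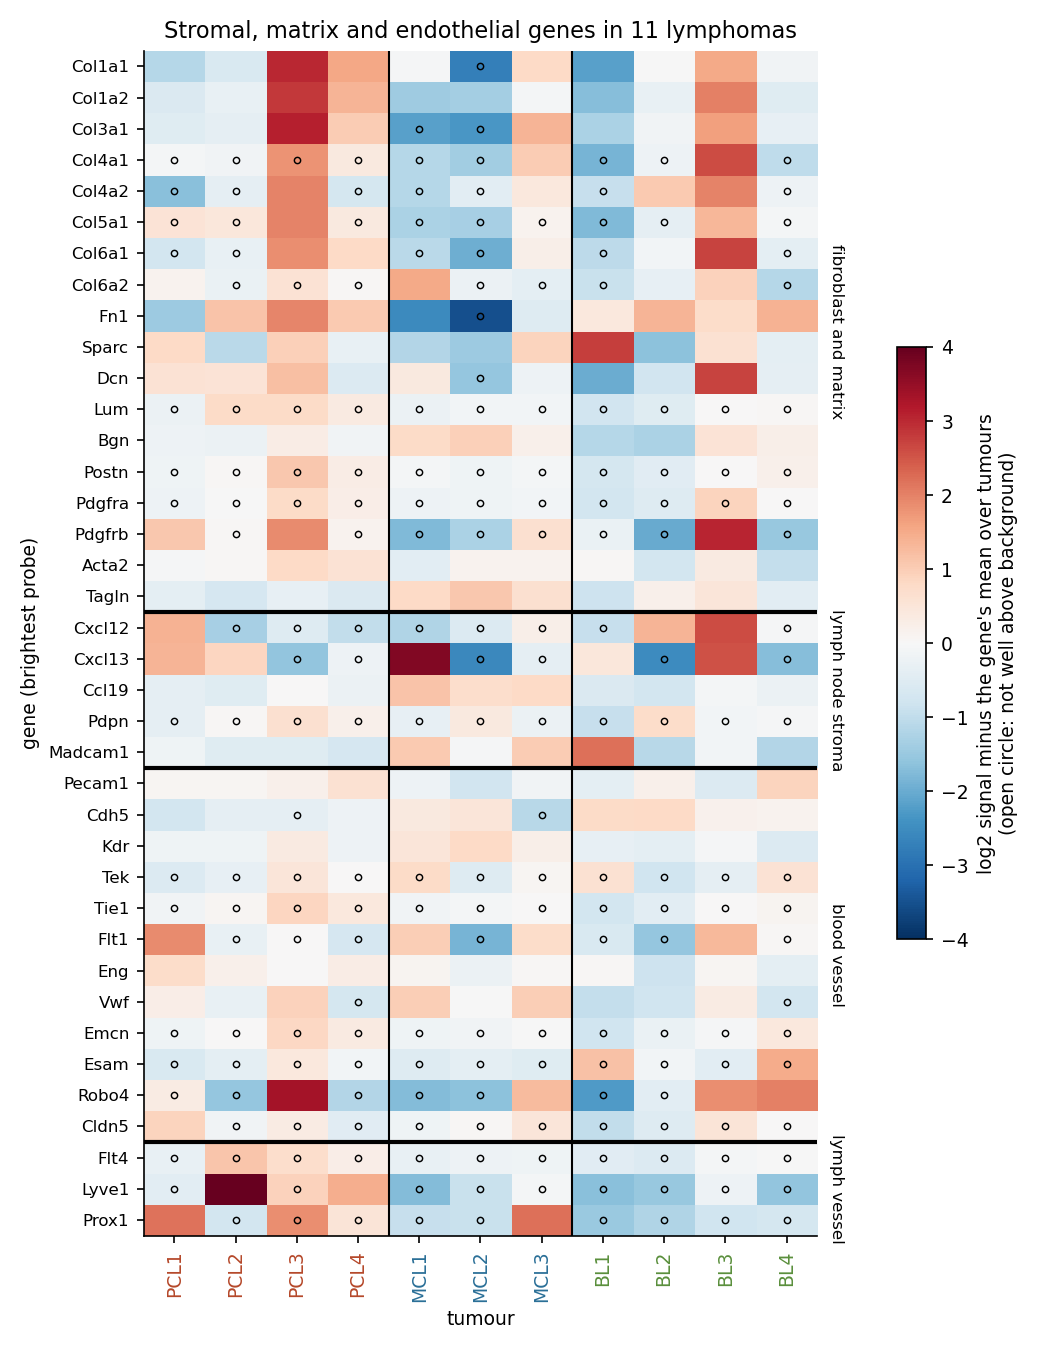
Levels of the 38 members with a probe (rows, brightest probe of each gene) in the 11 tumours (columns, PCL left, then MCL, then BL), as log2 signal minus the gene's own mean over the tumours; open circles mark values not well above background. Col1a1, Col1a2 and Col3a1 are darkest red in PCL3, Col4a1 and Col6a1 in BL3, and Tek, Tie1, Emcn, Esam and Flt4 carry a circle in every tumour.

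The fibrillar collagens ranged widely between tumours of 1 type, and no difference between types passed the test (for Col1a1, 1.36, SE 1.21, limma adjusted p 0.526 for PCL minus MCL). Col1a1, a chain of collagen I, had -4.62, -4.09, -0.47 and -1.95 in PCL1 to PCL4, -3.52, -6.23 and -2.68 in MCL1 to MCL3, and -5.65, -3.50, -1.97 and -3.63 in BL1 to BL4. Col1a2, the partner chain of the same fibre, had -3.17, -2.90, 0.22 and -1.25 in the PCL, -4.02, -3.97 and -2.68 in the MCL, and -4.30, -2.91, -0.58 and -3.09 in the BL. In both genes PCL3 was highest, PCL4 and BL3 came next, and the 3 types overlapped. Col3a1, which makes the collagen III of reticular fibres, had -4.83, -4.69, -1.21 and -3.31 in the PCL, -6.51, -6.67 and -2.98 in the MCL, and -5.60, -4.48, -2.70 and -4.65 in the BL. PCL3 again led, and MCL1 and MCL2 were not well above background.

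The 2 chains of collagen I moved together over the 11 tumours, with a Pearson r of 0.89 (permutation p 0.00018, adjusted 0.00036) and a Spearman rho of 0.85 (permutation p 0.00184, adjusted 0.00276). Col1a2 and Col3a1 had a Pearson r of 0.92 (permutation p 9e-05, adjusted 0.00036) and a Spearman rho of 0.93 (permutation p 0.00018, adjusted 0.00036). Without the 2 tumours farthest from the median of the first gene, r was 0.84 for both pairs (permutation p 0.00445 and 0.00353), and with the type means removed it was 0.89 and 0.90. Col6a1 and Col6a2, chains of the microfibrillar collagen VI, gave a Pearson r of 0.35 (permutation p 0.286, adjusted 0.343) and a Spearman rho of 0.18 (permutation p 0.595, adjusted 0.595), and r was -0.13 without PCL3 and BL3 (permutation p 0.735). Col6a1 was not well above background in 6 of the 11 tumours and Col6a2 in 7. The 3 relations made a family of 6 p-values, all two-sided, and each slide held only 3 or 4 tumours, too few for a value within a type.

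**Figure D2:**
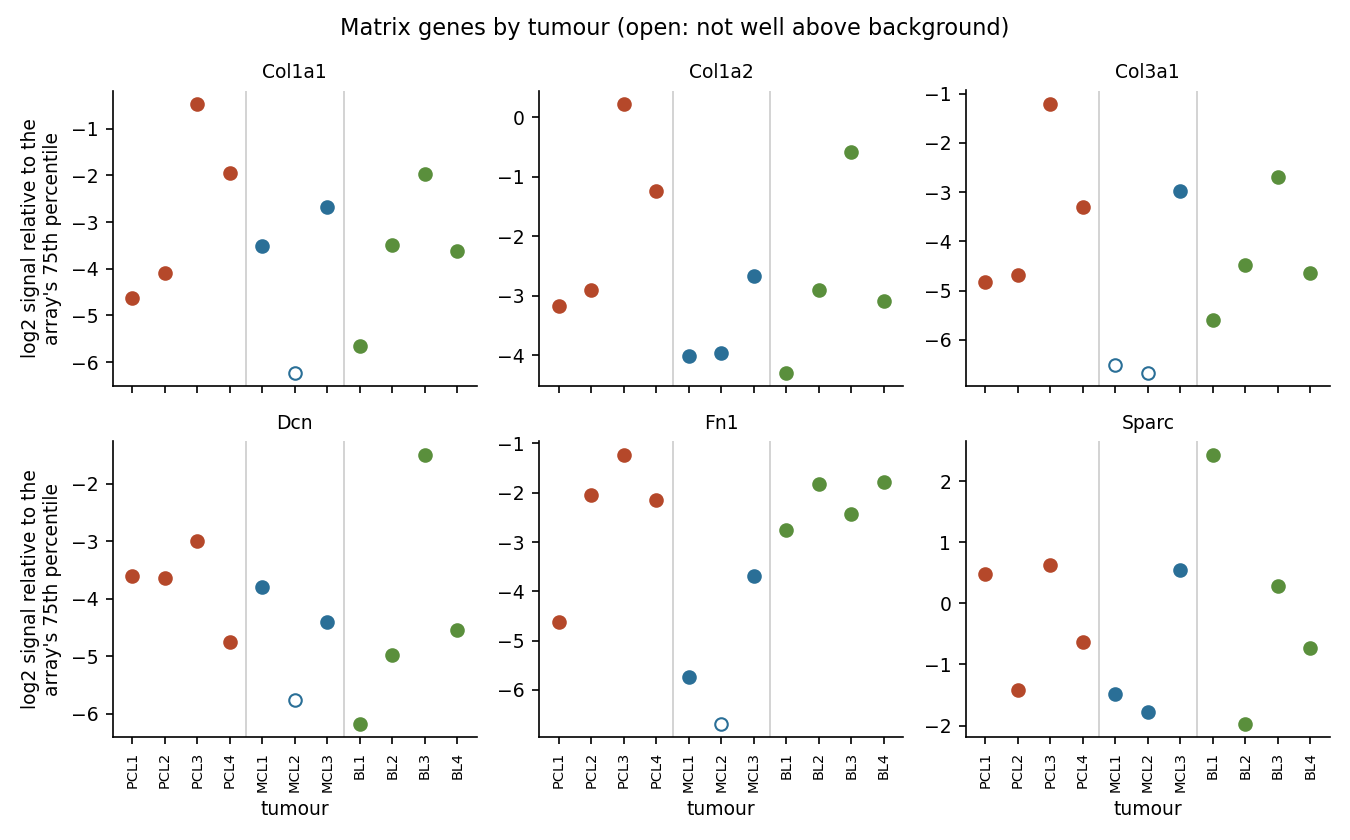
Levels of 6 matrix genes (log2 signal relative to the array's 75th percentile) in each tumour, PCL left, then MCL, then BL; open points were not well above background. PCL3 is the highest point for Col1a1 (-0.47), Col1a2 (0.22), Col3a1 (-1.21) and Fn1 (-1.23), BL3 for Dcn (-1.50) and BL1 for Sparc (2.43).

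The basement membrane and minor collagens were near the limit of detection. Col4a1 was well above background in 2 tumours, MCL3 and BL3, and its partner Col4a2 in 4, PCL3, MCL3, BL2 and BL3. Col5a1 was well above background in PCL3 and BL3 alone, at -4.49 and -5.13. Col6a1 was so in 5 tumours, highest in BL3 at -2.98 and PCL3 at -3.83. Col6a2 was so in 4, highest in MCL1 at -4.20. Of the 6 collagens measured, 4 were highest in PCL3, though for Col4a2 the level in BL3 was the same after rounding, -3.62.

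Among the matrix-binding proteins, Dcn, the proteoglycan that decorates collagen fibrils, ranged between -6.17 in BL1 and -1.50 in BL3, with a median of -4.40. Bgn, its relative, had -2.79, -2.82, -2.30 and -2.73 in the PCL, -1.82, -1.63 and -2.38 in the MCL, and -3.71, -3.86, -2.03 and -2.36 in the BL. MCL2 and MCL1 were the highest of the 11, MCL3 lay within the PCL, and the adjusted p were 0.350 for PCL against MCL and 0.233 for MCL against BL. Sparc, a secreted glycoprotein that binds collagen, was highest in BL1 at 2.43, with 0.48, -1.41, 0.63 and -0.63 in the PCL, -1.49, -1.78 and 0.55 in the MCL, and -1.97, 0.29 and -0.73 in BL2 to BL4. BL1 was also highest by the second Sparc probe, at -2.26, and its Col1a2 level was the lowest of the 11. Lum and Postn, a proteoglycan and a matrix protein of activated fibroblasts, were not well above background on any array.

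The fibroblast receptor Pdgfra was likewise detected on 0 arrays. Pdgfrb, the receptor that marks pericytes and reticular cells, was well above background in PCL1 at -5.38, PCL3 at -4.57 and BL3 at -3.39. Acta2, the actin of smooth muscle and contractile fibroblasts, lay between -5.25 and -3.52 in all 11 tumours. Its adjusted p were 0.523 for PCL against MCL, 0.332 for PCL against BL and 0.774 for MCL against BL.

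Taking the 13 measured matrix genes at their difference from each gene's own mean, the median in a tumour was -0.40, -0.30, 1.86 and 0.12 in the PCL, -1.06, -1.37 and 0.24 in the MCL, and -0.93, -0.30, 1.51 and -0.39 in the BL. PCL3 and BL3 stood above the other 9 tumours, from different types. The other matrix proteins, a list of 29 genes that holds no member, gave their highest median in PCL3 as well, at 1.07, but 0.16 in BL3. MCL2, lowest for 7 of the 24 measured members, had the lowest RNA integrity number, 8, and PCL3 the lowest share of spots well above background, 55.5%; their part in the pattern was not tested. The median SD within types was 1.24 for the 24 members and 0.42 for all genes tested. Of the 24, 21 lay below the median level of all genes, where the spread was also wider, 0.58 below that level against 0.34 above it.

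In the comparison of PCL with MCL, 2 of the 24 measured members were called, Tagln and Ccl19, both lower in PCL. Over all genes 6.94% were called in either direction and 4.82% were called lower in PCL. Levels did not overlap between PCL and MCL for 4 members, where 22.9% of all genes had arrays that did not overlap. The median difference of the members, PCL minus MCL, was 0.31, and that of all genes was -0.03.

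Tagln, an actin-binding protein of smooth muscle and contractile fibroblasts, had -0.74, -1.01, -0.68 and -0.93 in PCL and 0.47, 0.75 and 0.30 in MCL. All 4 PCL were below all 3 MCL, and PCL was 2.55-fold lower (difference -1.35, SE 0.29, limma adjusted p 0.0275). The BL had -1.16, -0.14, 0.14 and -0.76, below the MCL and overlapping the PCL. Acta2, with which Tagln shares contractile cells, had -4.35, -4.25, -3.52 and -3.72 in PCL and -4.74, -4.18 and -4.17 in MCL, a difference of 0.40 (SE 0.35). The limma call of Tagln was lost without PCL2, PCL3, PCL4, MCL1, MCL2 or MCL3, with adjusted p 0.0827, 0.0612, 0.0797, 0.0652, 0.091 and 0.0561, and with normexp (0.0708), and MCL against BL was called without BL3 (adjusted p 0.034).

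Fn1, the fibronectin that cells bind through integrins, had -4.63, -2.04, -1.23 and -2.14 in PCL, -5.74, -6.69 and -3.70 in MCL, and -2.75, -1.82, -2.44 and -1.79 in BL. All 3 MCL were below all 4 BL, while PCL1 lay within the range of the MCL, and MCL2 was not well above background. The difference was 2.87 for PCL minus MCL (SE 0.84, limma adjusted p 0.0699) and -3.17 for MCL minus BL (SE 0.84, limma adjusted p 0.0527), neither past the threshold. Without PCL1 both passed (limma adjusted p 0.0133 and 0.02), as they did without MCL3 (0.0456 and 0.0291).

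**Figure D3:**
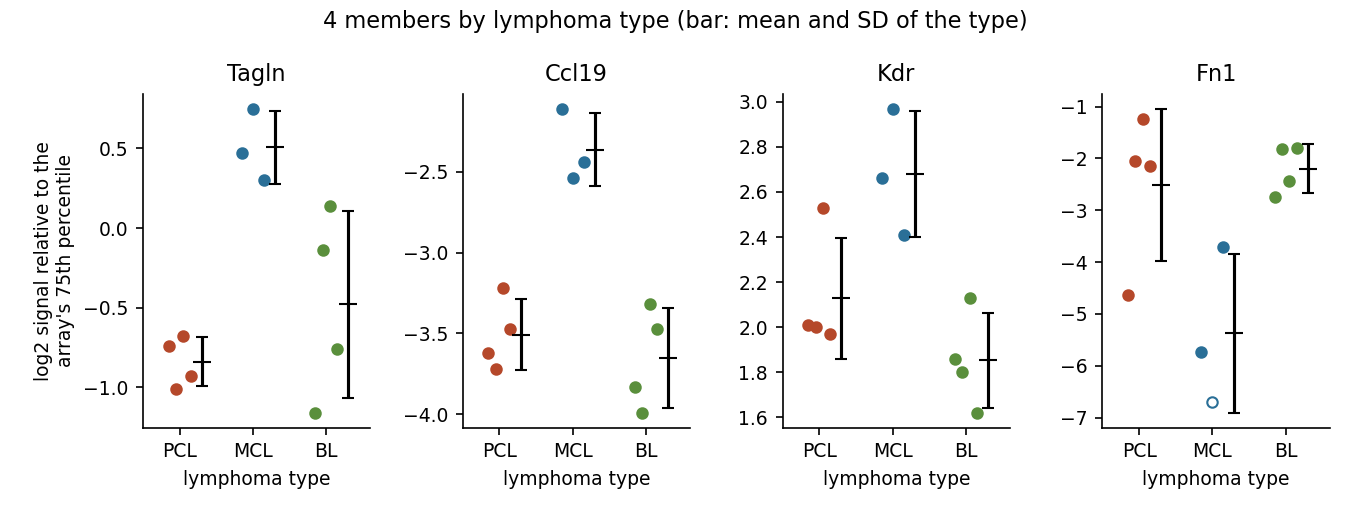
Levels of Tagln, Ccl19 (first probe), Kdr (bright probe) and Fn1 by lymphoma type, log2 signal relative to the array's 75th percentile; points are tumours, the bar gives mean and SD of a type, and the open point was not well above background. The 3 MCL lie above all PCL and BL for Tagln and Ccl19, and below all BL for Fn1.

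In the comparison of PCL with BL, 0 of the 24 members were called by limma, where 0.659% of all genes were called. At an unadjusted p under 0.05 there were 2 of 24, Cdh5 and Eng, where 17.6% of all genes were, and under the 20 alternative settings the count of calls was also 0. Cdh5, the adhesion protein of endothelial junctions, had -5.46, -5.08, -5.08 and -4.94 in PCL and -3.96, -3.94, -4.57 and -4.60 in BL. All PCL were below all BL, PCL3 being not well above background, with a difference of -0.87 (SE 0.35, limma adjusted p 0.235). Eng, a TGF-beta coreceptor of endothelium, averaged -4.31 ± 0.31 in PCL and -4.91 ± 0.42 in BL (SD, n = 4 each), with a difference of 0.59 (SE 0.24, limma adjusted p 0.238). The median difference of the members, PCL minus BL, was 0.30, beside 0.09 for all genes.

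In the comparison of MCL with BL, 2 of the 24 members were called, Ccl19 and Kdr, both higher in MCL. Over all genes 6.64% were called and 6.45% were called higher in MCL. The levels of 4 members did not overlap, where 17.7% of all genes did not. The median difference of the members, MCL minus BL, was -0.38, beside 0.06 for all genes, and turned to 0.18 without MCL2 and to 0.42 without BL3. Any difference among the 3 types was called for 2 members, Ccl19 and Tagln (limma F test, adjusted p 0.0148 and 0.0413), with 8.43% of all genes called.

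The Ccl19 calls rest on its first probe. That probe had -3.62, -3.72, -3.22 and -3.47 in PCL, -2.11, -2.54 and -2.44 in MCL, and -3.83, -3.99, -3.32 and -3.47 in BL. All 3 MCL were above the other 8 tumours, with a difference of -1.14 for PCL minus MCL (SE 0.22, limma adjusted p 0.0174) and 1.29 for MCL minus BL (SE 0.22, limma adjusted p 0.00828). The first of these calls was lost without PCL2, PCL4 or MCL1, with limma adjusted p 0.0596, 0.0545 and 0.0551. By the second probe the differences were -0.52 (SE 0.23, limma adjusted p 0.211 over all probes) and 0.93 (SE 0.23, limma adjusted p 0.0483 over all probes).

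The third Ccl19 probe showed another pattern. It was well above background in 3 tumours of 3 types, PCL1 at -5.41, MCL1 at -3.24 and BL3 at -3.92, and in the other 8 tumours it lay between -7.36 and -6.28, not well above background. Its difference was -0.51 for PCL minus MCL (SE 1.00, limma adjusted p 0.799 over all probes). With normexp background correction, Ccl19 differed by -0.51 for PCL minus MCL and 0.68 for MCL minus BL (limma adjusted p 0.56 and 0.773). With the mean of the 3 probes, Ccl19 was called in neither comparison (limma adjusted p 0.36 and 0.337). The mouse annotation lists 3 Ccl19 pseudogenes and 1 further gene that once bore the name Ccl19, Gm2023, so signal of these probes may be shared with near-identical copies, and the level of Ccl19 itself is uncertain.

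**Figure D4:**
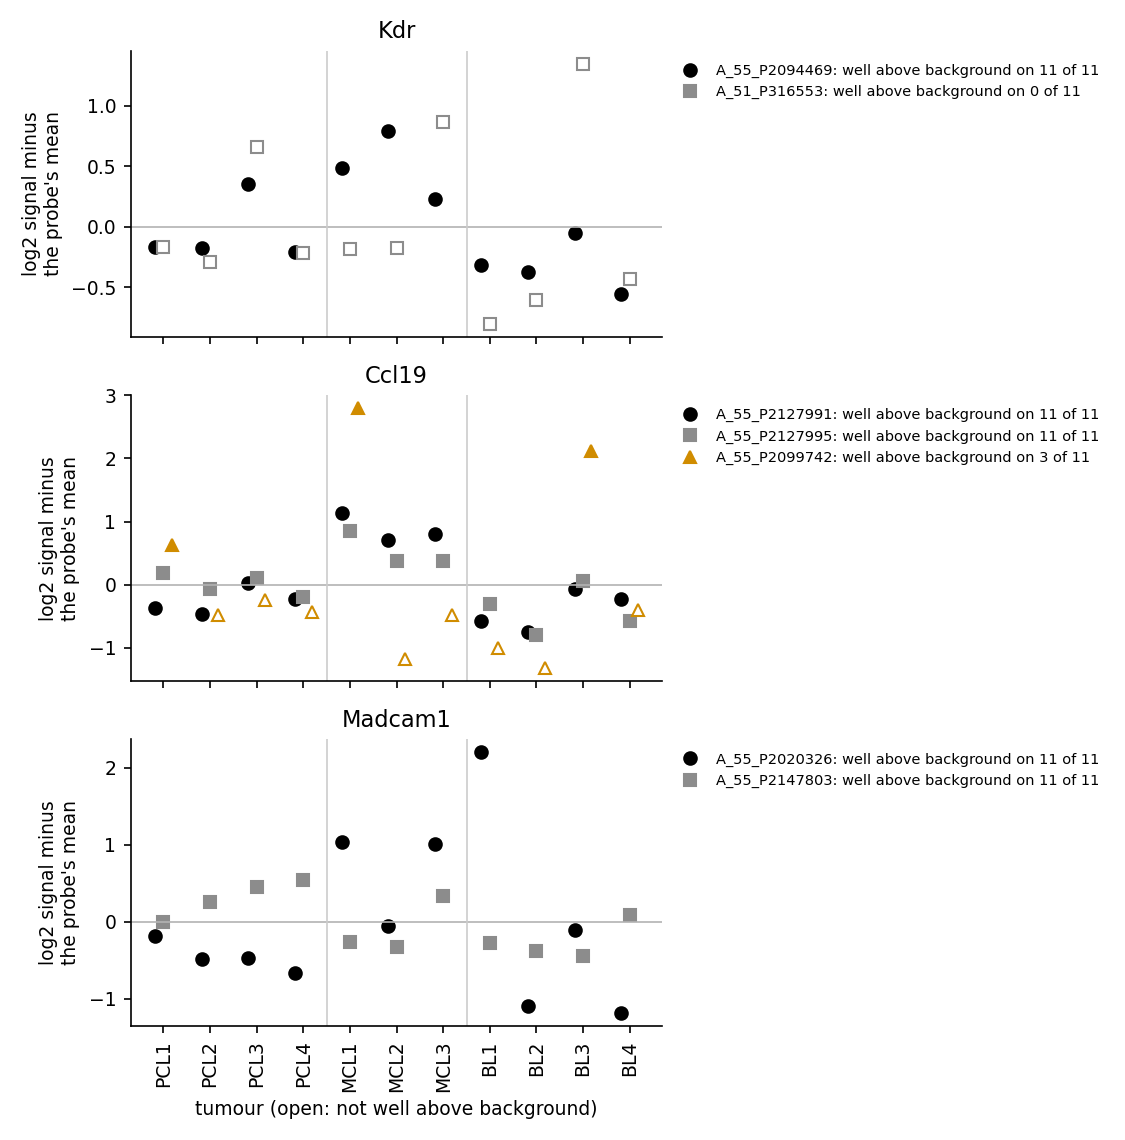
Every probe of Kdr, Ccl19 and Madcam1 in each tumour, as log2 signal minus that probe's own mean over the 11 tumours; open points were not well above background. The third Ccl19 probe (triangles) stands out in MCL1 and BL3, whereas the first probe is raised in all 3 MCL; the 2 Madcam1 probes order the tumours differently.

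Cxcl13, the B cell follicle chemokine, was well above background in 5 tumours: PCL1 at -3.99, PCL2 at -4.49, MCL1 at -1.65, BL1 at -4.92 and BL3 at -2.80. These 5 include all 3 tumours in which the third Ccl19 probe was detected, and MCL1 and BL3 were the highest of both. The lowest level was -7.93 in MCL2, so that the 3 MCL spanned nearly the whole range (SD 3.19), and no comparison was near the threshold (limma adjusted p 0.964, 0.921 and 0.893 for PCL against MCL, PCL against BL and MCL against BL). Cxcl12, the ligand of Cxcr4 that stroma and endothelium secrete, was well above background in PCL1 at -5.28, BL2 at -5.30 and BL3 at -4.05, and its second probe in BL3 alone.

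Ccl21a could not be read by its own name. A probe named Gm1987, whose accession list includes that of Ccl21a, was highest in BL3 at -0.68, then PCL1 at -2.72 and PCL3 at -2.77, and BL1 at -6.63 was not well above background. A probe for Gm13304, another copy of the gene, instead lay between 2.75 and 4.06 in all 11 tumours. Ccl21 has several near-identical copies in the mouse, so neither value is assigned to Ccl21a.

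Madcam1, the addressin of mucosal high endothelial venules, was likewise read by probes that disagree. The bright probe was highest in BL1 at -1.50, with -3.88, -4.19, -4.17 and -4.37 in PCL, -2.66, -3.76 and -2.69 in MCL, and -4.80, -3.81 and -4.88 in BL2 to BL4. The second probe ran between -4.55 and -3.56 and put BL1 at -4.38, among its lower values. Neither passed the threshold in a comparison: the limma adjusted p of PCL against MCL was 0.368 for the bright probe and 0.323 over all probes for the second. Pdpn, the surface marker of fibroblastic reticular cells and lymphatic endothelium, was detected on 0 arrays by either probe.

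**Figure D5:**
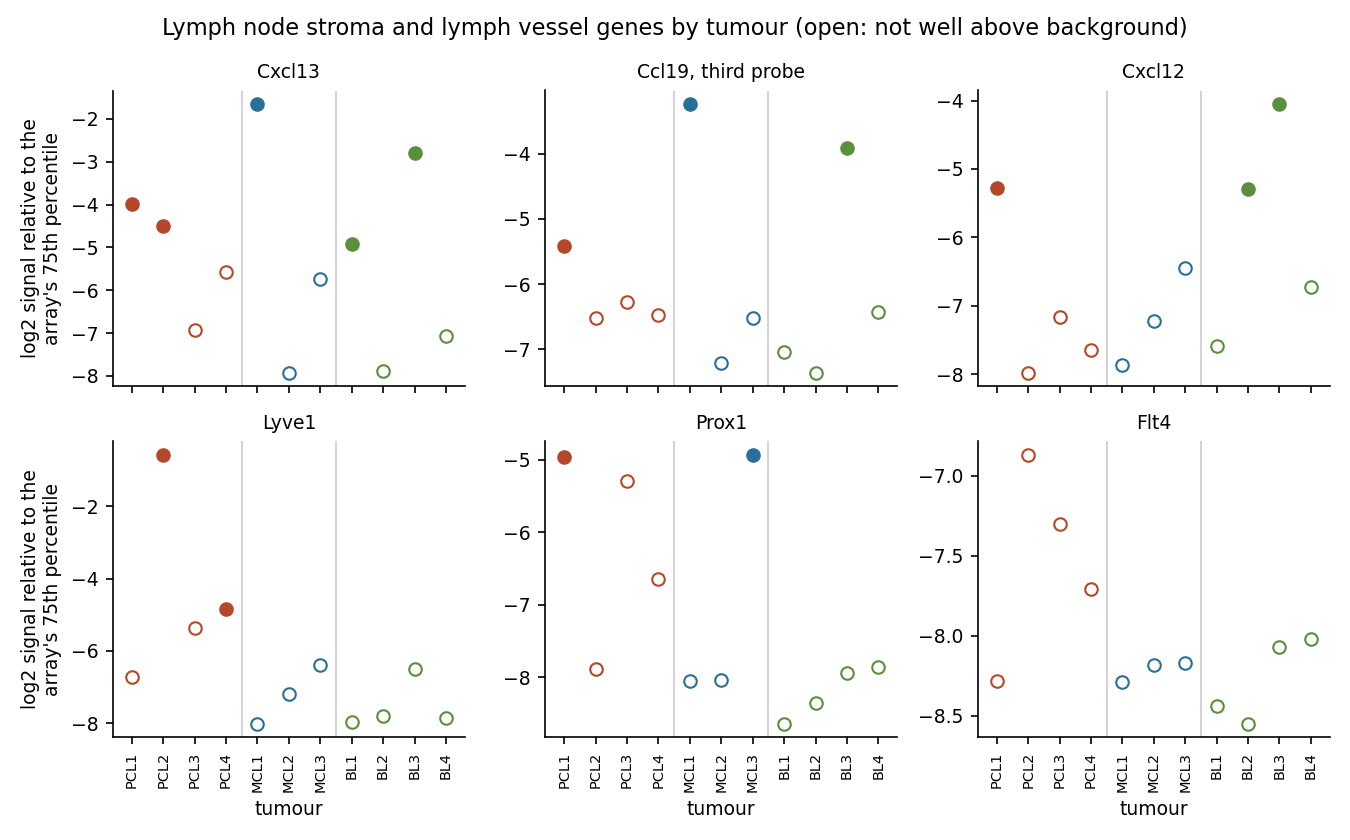
Levels of Cxcl13, the third Ccl19 probe, Cxcl12, Lyve1, Prox1 and Flt4 (log2 signal relative to the array's 75th percentile) in each tumour, PCL left, then MCL, then BL; open points were not well above background. MCL1 and BL3 lead Cxcl13 and the third Ccl19 probe, PCL2 alone is high for Lyve1, and Flt4 has open points only.

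Of the 12 blood vessel genes, 7 were measured. The angiopoietin receptor Tek, its relative Tie1, the sialomucin Emcn and the junction protein Esam were not well above background on any array. Cldn5, a tight junction protein, was so in PCL1 alone, at -5.72. Robo4, an endothelial guidance receptor, was so in PCL3 at -3.19, MCL3 at -5.23, BL3 at -4.66 and BL4 at -4.48. Flt1, the decoy-like VEGF receptor, was so in PCL1 at -4.43, MCL1 at -5.32, MCL3 at -5.57 and BL3 at -5.01. A second Flt1 probe was well above background on 0 arrays, so these values are of the brighter probe alone. BL3 had 26 of the 38 members well above background, the most of the 11 tumours, and MCL2 had 12, the fewest.

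Kdr was detected by 1 of its 2 probes. The bright probe had 2.01, 2.00, 2.53 and 1.97 in PCL, 2.66, 2.97 and 2.41 in MCL, and 1.86, 1.80, 2.13 and 1.62 in BL. All 3 MCL were above all 4 BL, a 1.77-fold difference (0.82, SE 0.21, limma adjusted p 0.0476), and PCL3 lay among the MCL. Which of the 2 probes reads Kdr mRNA cannot be settled from these values, so the call is one of the bright probe and may not be a value of Kdr. The dim probe of the same transcript was well above background on 0 of the 11 arrays, with values between -8.17 and -6.02. The call of the bright probe was lost without PCL1, PCL2, PCL4, MCL1, MCL2, MCL3, BL1, BL2 or BL4, at limma adjusted p between 0.0538 and 0.151, and with normexp background correction (0.259).

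Pecam1, Vwf and Eng passed the threshold in no comparison. Pecam1, an adhesion protein of endothelium that leukocytes and platelets also carry, lay between -1.95 in MCL2 and -0.28 in BL4. All PCL (-1.11, -1.12, -0.99 and -0.58) were above all MCL (-1.38, -1.95 and -1.33), but the difference of 0.60 (SE 0.34) did not pass the threshold (limma adjusted p 0.318). Vwf, the clotting factor stored in endothelium and platelets, had -4.95, -5.51, -4.29 and -5.90 in PCL, -4.23, -5.22 and -4.23 in MCL, and -6.15, -5.99, -4.88 and -5.93 in BL (MCL minus BL 1.18, SE 0.44, limma adjusted p 0.178). Eng was well above background in all 11 tumours and ranged between -5.46 and -3.88.

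Lymph vessel genes were rare. Flt4, the receptor for VEGF-C, was detected on 0 arrays. Prox1, the transcription factor that sets lymphatic identity, was so in PCL1 at -4.96 and MCL3 at -4.93. Lyve1, a hyaluronan receptor of lymphatic endothelium that some tissue macrophages also carry, was at -0.57 in PCL2 and -4.84 in PCL4 and not well above background in the other 9 tumours. PCL2 exceeded the next tumour 19.3-fold (log2 difference 4.27). Since neither MCL nor BL had an array well above background, their arrays were raised, where lower, to their weakest signal well above background. Against these limits the mean of PCL was 3.14-fold that of MCL and 3.37-fold that of BL. These folds rest on PCL2: without it they were 1.30-fold and 1.40-fold, a setting chosen after the data were seen. PCL1 and PCL3 were not well above background themselves, so neither fold is a strict lower bound. Lyve1 did not pass the filter and was not tested.

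In PCL2, the tumour with high Lyve1, Flt4 and Prox1 were not well above background, and neutrophil markers had their highest median, 3.25. The macrophage and monocyte markers, 14 of 16 measured and every one of the 15 on the array detected somewhere, had their highest median there, at 2.74 relative to each gene's mean, with 1.72 in PCL4, 1.30 in PCL3 and -0.91 in PCL1. The medians in MCL were 0.29, -1.82 and -1.33, and those in BL -0.58, -0.56, 0.02 and -0.46. Summed over the list, in units of the 75th percentile, the level was 13.6 to 38.2 in PCL, 13.9 to 21.2 in MCL and 9.95 to 22.0 in BL. The part of macrophages in the Lyve1 signal was not tested.

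Of the other genes of the same pathways, few passed the test, and the counts called are to be read beside the shares over all genes. Those were 6.94% for PCL against MCL, 0.659% for PCL against BL and 6.64% for MCL against BL, and 8.43% for the F test over the 3 types. Counts called are of comparisons between 2 types unless the F test is named. Among 7 measured matrix proteases and inhibitors, 1 was called: Timp1, an inhibitor of matrix proteases, with -3.16, -4.84, -3.57 and -4.60 in PCL and -6.56, -7.38 and -5.00 in MCL (difference 2.27, SE 0.57, limma adjusted p 0.0432). All PCL were above all MCL, though MCL3 was the only MCL well above background, and the call was lost without any array other than MCL3 (limma adjusted p 0.0546 to 0.133). With normexp background correction the difference was 1.11 (limma adjusted p 0.3), and with array weights 1.42 (limma adjusted p 0.0815). Among 11 measured reticular cell and stroma signals, 1 was called: Vcam1, the adhesion molecule that binds lymphocyte integrins, with -2.19, 2.01, 1.48 and 1.50 in PCL and -2.11, -5.06 and -3.53 in MCL (difference 4.27, SE 1.04, limma adjusted p 0.0395). PCL1 lay among the MCL and was low in macrophage markers too, the other 3 PCL were high in both, and the part of macrophages was not tested. PCL1 stood apart beyond these genes. Without PCL1, calls over all genes rose from 1401 to 2463 for PCL against MCL and from 133 to 1074 for PCL against BL. The second Vcam1 probe gave 3.29 (SE 0.83, limma adjusted p 0.0482 over all probes). The Vcam1 call was lost without PCL2, PCL3, PCL4, MCL2, MCL3, BL2 or BL3 (limma adjusted p 0.0512 to 0.128).

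Among 12 measured angiogenic ligands and coreceptors, 1 was called, in all 3 comparisons. Tgfb1, the growth factor that drives fibroblasts to make matrix, had -0.46, -0.44, -0.22 and -0.33 in PCL, 0.28, 0.32 and 0.39 in MCL, and 0.88, 1.21, 0.79 and 1.02 in BL. The 3 types did not overlap, with PCL lowest and BL highest. The differences were -0.69 for PCL minus MCL, -1.34 for PCL minus BL and -0.65 for MCL minus BL (limma adjusted p 0.0303, 0.0105 and 0.0358). The call of PCL against BL was lost without PCL2 (limma adjusted p 0.0513). Without any 1 of PCL2, PCL3, PCL4 and the 3 MCL both other calls were lost, and MCL against BL also without BL1, BL2 or BL4 (limma adjusted p 0.0508 to 0.112). The F test called Nrp2 besides Tgfb1 (limma F adjusted p 0.0437). Nrp2 had 2.42, 0.29, -1.43 and -2.55 in PCL, below all MCL (mean 3.20) and all BL (mean 3.21). Its differences were -3.52 for PCL minus MCL and -3.53 for PCL minus BL (limma adjusted p 0.0509 and 0.0893). A second Nrp2 probe gave -3.08 and -3.14 (limma F adjusted p 0.0605 over all probes).

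Among 11 measured collagen processing enzymes, 1 was called lower in PCL than in MCL and 2 higher in MCL than in BL. Loxl2, which crosslinks collagen, had -0.85, -1.32, -1.03 and -1.06 in PCL, -0.25, -0.37 and -0.49 in MCL, and -1.55, -1.59, -1.54 and -1.52 in BL, so that the types did not overlap. Its differences were -0.70 for PCL minus MCL and 1.18 for MCL minus BL (limma adjusted p 0.0295 and 0.00318), the first of them lost without PCL2, PCL3, PCL4 or any MCL (limma adjusted p 0.0571 to 0.0875). A dimmer Loxl2 probe gave 0.04 for PCL minus MCL and 0.66 for MCL minus BL (limma adjusted p 0.972 and 0.577 over all probes). Bmp1, which trims procollagen, was higher in MCL than in BL by 0.66 (SE 0.17, limma adjusted p 0.0436), a call lost without any array but PCL1 (limma adjusted p 0.0521 to 0.154), and its other 2 probes gave 0.66 and 0.01 (limma adjusted p 0.396 and 0.998 over all probes). Of 15 measured other matrix proteins, Vcan, a large proteoglycan, was called higher in MCL than in BL, by 0.68 (SE 0.15, limma adjusted p 0.0253). This call is of the brightest of 3 Vcan probes alone. A dimmer Vcan probe was well above background on 2 arrays, with means of -6.51 in MCL and -6.35 in BL. The remaining Vcan probe was well above background on 0 arrays, and neither dim probe passed the filter. In the same list the F test called Col14a1 besides Vcan (limma F adjusted p 0.045). Col14a1 had -3.20, -0.98, -0.55 and -0.54 in PCL, above all BL (mean -4.94) and overlapping the MCL. Its difference was 3.62 for PCL minus BL (SE 0.80, limma adjusted p 0.0693). A second Col14a1 probe gave 1.52 (limma F adjusted p 0.105 over all probes). Of 11 measured other endothelial genes, Gpihbp1, which holds lipoprotein lipase on capillaries, was called higher in MCL than in BL, by 0.71 (SE 0.17, limma adjusted p 0.0343). Vcan lost its call without MCL1, MCL3, BL1, BL2 or BL4, and Gpihbp1 without PCL2, any MCL, BL1, BL2 or BL4 (limma adjusted p 0.0516 to 0.105). With normexp the differences were 0.33 for Vcan and 0.25 for Gpihbp1 (limma adjusted p 0.901 and 0.94), and with the authors' values 0.44 and 0.40 (limma adjusted p 0.0955 and 0.108).

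Of the 10 measured receptors on B cells for stroma, limma called 0. At an unadjusted p under 0.05 there were 1 for PCL against MCL, 2 for PCL against BL and 1 for MCL against BL, where 24.4%, 17.6% and 18.5% of all genes were. The median differences of the 7 lists ran between -0.17 and 1.60 for PCL minus MCL and between 0.02 and 1.70 for PCL minus BL, highest for the proteases and inhibitors in both. In this list PCL2, PCL3 and PCL4 had medians of 0.76, 0.60 and 1.32 and PCL1 one of -0.77. PCL1 was also the lowest PCL for macrophage and neutrophil markers, at medians of -0.91 and -1.75, and their part was not tested.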

How the data were processed

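RNA of 11 lymphomas (4 PCL, 3 MCL, 4 BL) was measured on one-colour Agilent arrays with Cy3. Groups follow the tumour origin in the labels. The labels do not say that each tumour came from its own mouse, so p-values reflect only how far these samples vary, in part perhaps for technical reasons. The authors' deposited scanner files hold the intensity of each spot, not normalized between arrays, and per the file headers they were written by version 10.7.3.1 of Agilent Feature Extraction. That program had put a surrogate in place of the signal for 21.5% to 29.2% of spots per array. A deposited table of the authors in log2 units, with array medians of 7.25 to 7.26, served as an alternative. The sources used here do not say how it was made.

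From 43020 non-control spots, outlier-marked ones were left out, spots of a probe were averaged, and processed signals were divided by their 75th percentile on the array before log2 was taken. That percentile lay between 1072 and 1637 intensity units. Precision is limited by how many arrays there are. A probe was kept if 3 or more arrays had it well above background (25296 probes), and the probe with the highest mean stood for a gene. Copies of Ccl19 and Ccl21 were counted in the mouse RefSeq annotation. limma 3.58.1 in R 4.3.3 fitted a mean per type over all 11 arrays (8 residual degrees of freedom), and adjusted p were taken over 20181 genes. The fit was tested on simulated data. Differences are the first-named type minus the second, and p over all probes come from the same fit of every kept probe.

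Where no array of a type was well above background, the fold is bounded on the dim side only. The brighter type's mean is set against the dim type's mean after each dim array is raised, where lower, to its weakest signal that was well above background. Arrays of the brighter type keep their readings, dim ones too. Correlations were tested by 100000 permutations of tumours. The members and the lists were chosen with earlier results of these data known. All members are named, and of the pathway lists every gene called, at most the 10 largest differences a comparison. Marker lists of other cell types are given by their summed or median level. Replicate numbers were not taken to pair tumours: over 10 same-numbered pairs the deviations from type means correlated at -0.05 to 0.17. Pairs with different numbers were not set beside them, so the check cannot exclude a pairing. Alternatives changed background correction, normalization, filter, probe choice, weights, arrays in the fit and a block for the replicate number.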

Additional observations from a re-analysis of the deposited data

Results flagged for a closer look

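In groups of 4, PCL and BL, a tumour was singled out where its gap to the nearest other was over Dixon's 95% critical value, which chance gives in about 1 of 20 groups. Of 54 groups of members tested, 4 met this. PCL3 stood above the other PCL for Kdr, at 2.53 (others 1.97 to 2.01), for Bgn, at -2.30 (others -2.82 to -2.73), and for Col5a1, at -4.49 (others -6.08 to -5.92, not well above background). BL3 stood above the other BL for Vwf, at -4.88 (others -6.15 to -5.93). These 2 tumours also had the highest matrix medians, but Bgn is among the 13 genes that make up those medians. The Kdr flag is of its bright probe, which may not read Kdr.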

How the results depend on the processing

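Counts of called members under the 20 alternatives are given for PCL against MCL (2), MCL against BL (2) and the F test over types (2). With normexp background correction they were 0, 0 and 0, with the mean of a gene's probes 1, 0 and 1, and with a block for the replicate number 1, 1 and 0, the blocked fit keeping Ccl19 in both comparisons. Without a filter on dim probes MCL against BL and the F test gave 1 and 1, with array weights MCL against BL gave 1 (PCL against MCL 3 and the F test 3), and in a fit of only the 2 types compared MCL against BL gave 0; the cause was not tested, except that leaving out the filter adds genes to the adjustment. With probes well above background on all arrays of a type MCL against BL gave 3, Fn1 being added (adjusted p 0.0429). Leaving out 1 array gave 0 to 3, 1 to 3 and 0 to 3. PCL against BL was 0 throughout. Median differences of the members moved by less than the spread between tumours (0.55), apart from MCL against BL, which ran between -0.47 and 0.42 when 1 array was left out (0.18 without MCL2, 0.42 without BL3). Among the 68 uncalled differences of members, 27 changed sign under some alternative and 3 gained a call, both of Fn1 and that of Tagln between MCL and BL. Of the 10 calls between 2 types in the pathway lists, 9 were lost with normexp, all but Tgfb1 in PCL against BL. The replicate block, no filter and the fit of only the types compared each ended 8, all but that one and Loxl2 in MCL against BL. Array weights ended 4, and quantile normalization, the authors' values and the mean of probes 3 each. Over all genes, calls ranged between 197 and 4424 for PCL against MCL, 5 and 2183 for PCL against BL, and 65 and 1476 for MCL against BL. The share of calls higher in PCL than in BL was 69.2%, and 57.7% with quantile normalization, 50.6% with the authors' values, 54.0% with array weights and 38.5% with normexp; that of PCL over MCL was 30.6%, and 46.2% with normexp, under which the median of all genes shifted to 0.16 for PCL minus MCL and -0.10 for MCL minus BL. Of the 38 members, 14 were too dim to test, and the Fn1 difference, PCL minus MCL, was 1.76 with normexp against 2.87.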
